A study of Nicotiana tabacum with 9 samples.

Results

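The phosphatidylinositol 3-kinase (PI3K) complex of autophagy was represented by 4 genes of tobacco (*Nicotiana tabacum*), chosen by name among the 76785 gene identifiers measured: *ATG6* in 2 copies, *VPS34* and *VPS15*. Matched to the reference, GeneID:107784737's and GeneID:107828723's name is *ATG6*, GeneID:107795370's is *VPS34* and GeneID:107792939's is *VPS15*, and the *ATG6* copies are called here by their reference symbols, LOC107784737 and LOC107828723. All 4 passed the filter on low values, as did 27836 genes in all. The names came from the RefSeq gene table of the assembly ASM71507v2, whereas the tables follow the annotation of Ntab-TN90, so the identifiers carry the names and no positions are given. RNA-seq was done on bicellular pollen of wild type (WT) plants, *ATG2*-silenced plants (ATG2 RNAi) and *ATG5*-silenced plants (ATG5 RNAi), with 3 libraries from independent replicates of each genotype and 9 in all. The methods of the study name the cultivar Petite Havana SR1, and all plants were grown in a glasshouse. The promoter that drives the RNAi, the number of transgenic lines and the age of the plants are not given in the sources used here. The study asked how silencing of a gene of the autophagy machinery affects the pollen transcriptome, and the comparisons below give the transcripts of the PI3K complex in each silenced line.

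In autophagy, a double membrane closes around cytoplasm and carries it to the vacuole for breakdown. VPS34 is the lipid kinase of the complex and makes phosphatidylinositol 3-phosphate on the membranes where autophagosomes form and on endosomes. VPS15 is a kinase-like protein that holds VPS34 at the membrane, and ATG6, the plant relative of yeast Atg6 and mammalian Beclin 1, is a regulatory subunit. ATG2 and ATG5 act at other steps: ATG2 transfers lipids to the growing membrane, and ATG5 is part of the conjugation machinery that attaches ATG8 to lipid. In Arabidopsis, ATG6 is needed for pollen germination.

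Values were FPKM, which are fragment numbers scaled to transcript length and to the mapped total of the library, and the depth behind each value is unknown because no read counts were used. The sum of FPKM per library was between 904845 and 1030772. The 3 *ATG2*-silenced libraries and WT replicate 3 carry 1 decimal and the other libraries 2, which is coarse for genes near 1 FPKM. The silenced genes themselves fell: *ATG2* was 1.04 ± 0.14 FPKM (SD, n = 3) in WT and 0.233 ± 0.058 in *ATG2*-silenced pollen, and *ATG5* went from 1.38 ± 0.30 in WT to 0.170 ± 0.066 in *ATG5*-silenced pollen. All 5 named pollen genes were abundant in every library, with a summed level of 24998 to 26854 FPKM in WT, 27185 to 28573 in *ATG2*-silenced and 40156 to 44154 in *ATG5*-silenced pollen. In that line 3 of the 5 were higher than in WT and 2 lower (limma), beside 27.1% higher and 24.9% lower among all tested genes. The higher ones were *ntp201* (5430 FPKM in WT and 15584 there, log2 change 1.89), *ntp805* (1.25) and *ntp101* (0.79). The lower ones were *PRO1*, a profilin gene (747 FPKM in WT and 299 there, log2 change -0.96), and *PPME1*, a pectin methylesterase gene (-0.55). The summed level of 6 green tissue genes was 1.6 to 3.33 FPKM in WT, 0.8 to 1.4 in *ATG2*-silenced and 0.12 to 0.54 in *ATG5*-silenced pollen, with 1, 1 and 2 of the 6 at 0 in all libraries of a genotype. Among them *CAB21*, a chlorophyll-binding protein gene, was lower in *ATG5*-silenced pollen than in WT (log2 change -1.58, adjusted p = 0.000608, limma). The summed level of 6 root genes was 0.67 to 1 FPKM in WT, 0.7 to 0.9 in *ATG2*-silenced and 0.59 to 1.33 in *ATG5*-silenced pollen, and no anther wall marker had a matching name. The part of green tissue RNA in the values below was not tested, and in bulk pollen fewer cells of a type and less RNA per cell cannot be told apart.

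All 4 genes were transcribed at a low to middle level in WT pollen. *VPS15* had the highest level, 6.96 ± 1.01 FPKM (SD, n = 3), above that of 72.4% of the tested genes. *VPS34* followed at 3.15 ± 0.437 FPKM, above 57.4%, then *ATG6* LOC107784737 at 1.94 ± 0.357 FPKM, above 45.6%, and *ATG6* LOC107828723 at 1.18 ± 0.0985 FPKM, above 32.3%. FPKM is per transcript length, so levels of different genes can be set side by side. In WT no library of one gene overlapped with those of the next gene in this order. In *ATG2*-silenced pollen *VPS15* stayed highest, followed by both *ATG6* copies, and the range of *VPS34* overlapped with that of *ATG6* LOC107828723. In *ATG5*-silenced pollen the order was as in WT, but neighbours overlapped among *VPS34* and the *ATG6* copies.

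**Figure D1:**
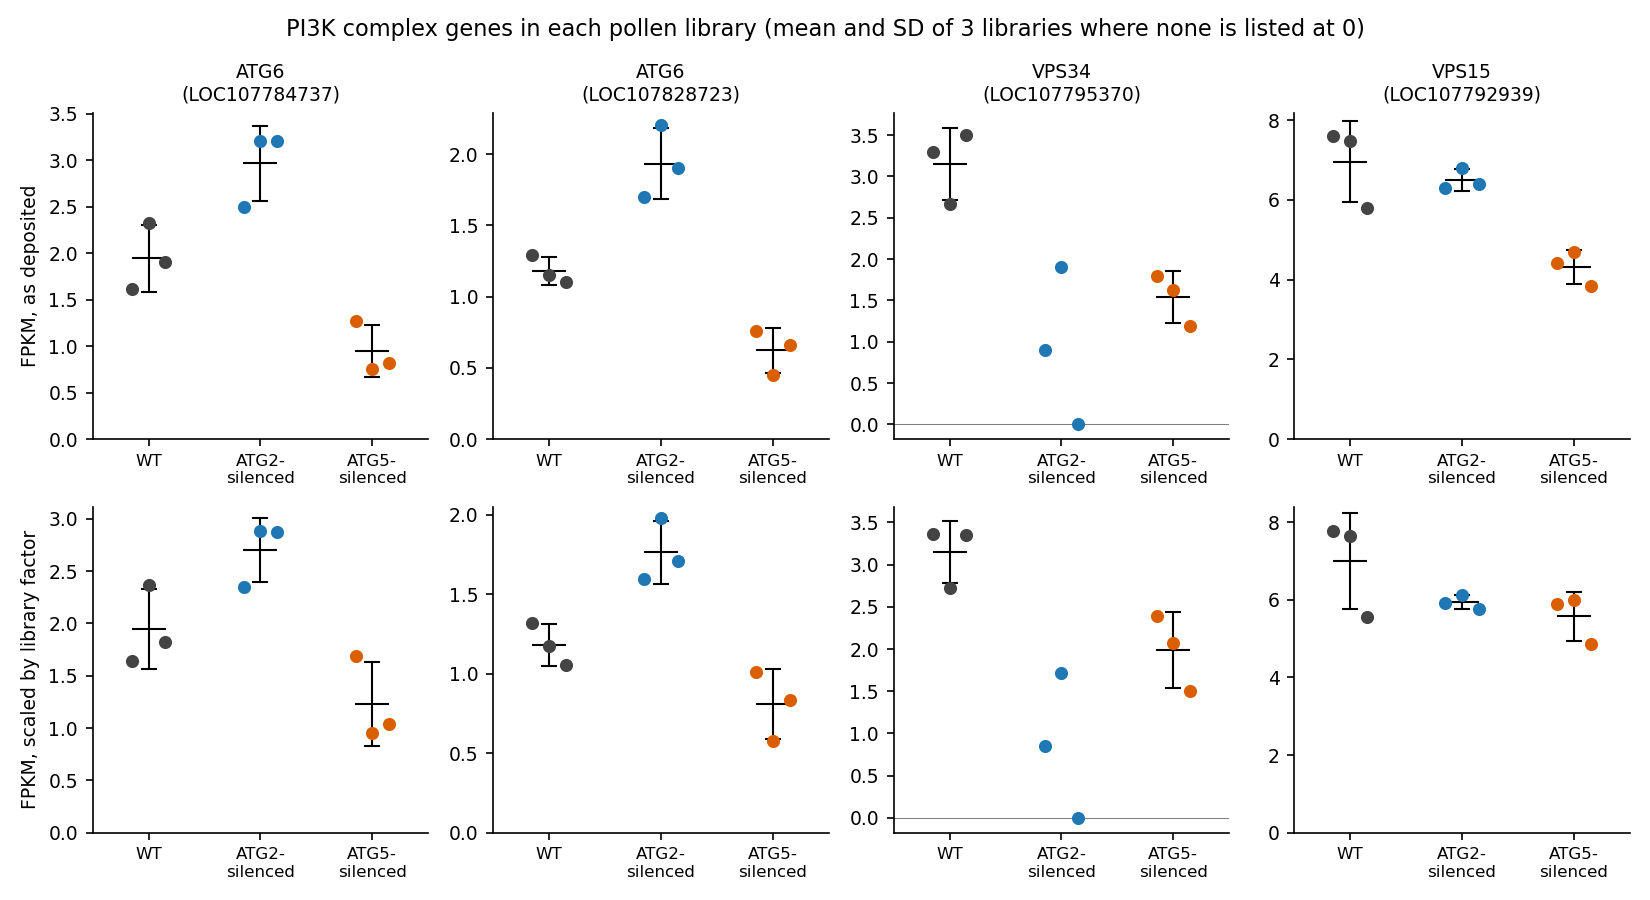
FPKM of the 4 PI3K complex genes in each of the 9 libraries (points), as deposited (top) and divided by the factor of each library (bottom), with the mean and SD of 3 libraries where none is listed at 0. Both *ATG6* copies are highest in *ATG2*-silenced and lowest in *ATG5*-silenced pollen, *VPS34* is highest in WT and listed at 0 in 1 *ATG2*-silenced library, and *VPS15* spans 3.84 to 7.61 FPKM as deposited.

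Both *ATG6* copies had less transcript in the *ATG5* line than in the *ATG2* line, and these were the only 2 of the 12 comparisons of a PI3K complex gene that passed the test. *ATG6* LOC107784737 had 1.61, 2.32 and 1.9 FPKM in WT replicates 1 to 3, 2.5, 3.2 and 3.2 FPKM in *ATG2*-silenced pollen, and 1.27, 0.75 and 0.82 FPKM in *ATG5*-silenced pollen. As deposited, none of the 3 genotypes overlapped with another, with *ATG2*-silenced pollen highest and *ATG5*-silenced pollen lowest. After scaling, WT overlapped with both silenced lines (1.64 to 2.37 in WT, from 2.35 in *ATG2*-silenced and up to 1.69 in *ATG5*-silenced pollen). The means of the silenced lines were 153% and 48.7% of the WT mean as deposited, and 139% and 63.1% after scaling. *ATG6* LOC107828723 had 1.29, 1.15 and 1.1 FPKM in WT, 1.7, 2.2 and 1.9 FPKM in *ATG2*-silenced pollen, and 0.76, 0.45 and 0.66 FPKM in *ATG5*-silenced pollen. The order was the same and again no genotypes overlapped, also after scaling. The silenced lines were at 164% and 52.8% of the WT mean as deposited and 149% and 68.2% after scaling. How common such a lack of overlap was among all tested genes was not determined, for these copies or the genes below. The order of the genotypes therefore only describes the libraries, and neither copy passed the test against WT in either line.

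For the tests each library was divided by a scaling factor, 0.978 to 1.04 in WT, 1.06 to 1.11 in *ATG2*-silenced and 0.751 to 0.791 in *ATG5*-silenced pollen, which raises the values of *ATG5*-silenced pollen relative to the others. Changes are on the log2(FPKM + 0.5) scale, which understates the change of weakly expressed genes, and a gene passed at an adjusted p under 0.05 (limma, Benjamini-Hochberg over the 27836 tested genes). *ATG6* LOC107784737 was lower in *ATG5*-silenced pollen than in the *ATG2* line by a log2 change of -0.91 (SE 0.19, 95% interval -1.35 to -0.47, adjusted p = 0.00367, limma). The other copy, LOC107828723, differed by -0.80 (SE 0.17, 95% interval -1.18 to -0.42, adjusted p = 0.00322). After scaling, too, the libraries of the silenced lines did not overlap for either copy. In this comparison 26.8% of all tested genes were higher and 27.5% lower, so such a call is common.

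Against WT neither copy passed the test in either line, nor did any of the 4 PI3K complex genes. At an unadjusted p under 0.05 (limma) there would be 2 of the 4 in *ATG2*-silenced pollen, LOC107828723 (higher) and *VPS34* (lower), and 1 in *ATG5*-silenced pollen, LOC107784737 (lower), where 17.8% and 58.1% of all tested genes had such a p. In *ATG2*-silenced pollen the log2 change of LOC107784737 was 0.40 (SE 0.19, 95% interval -0.04 to 0.83, adjusted p = 0.330, limma), and that of LOC107828723 was 0.43 (SE 0.17, interval 0.05 to 0.80, adjusted p = 0.224). Here 0.672% of all tested genes passed as higher and 0.41% as lower. With *ATG5* silenced the changes were -0.51 (SE 0.19, interval -0.95 to -0.08, adjusted p = 0.0508) and -0.38 (SE 0.17, interval -0.75 to 0.00, adjusted p = 0.0874), with 27.1% of all genes higher and 24.9% lower. Both comparisons use the same 3 WT libraries. The values against WT in *ATG5*-silenced pollen lay near the threshold: without *ATG5*-silenced replicate 1 they were -0.69 (adjusted p = 0.0125) and -0.48 (adjusted p = 0.0490), without replicate 2 they were -0.40 (adjusted p = 0.154) and -0.24 (adjusted p = 0.261), and over all alternatives the adjusted p ranged from 0.00668 to 0.155 and from 0.0104 to 0.261.

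**Figure D2:**
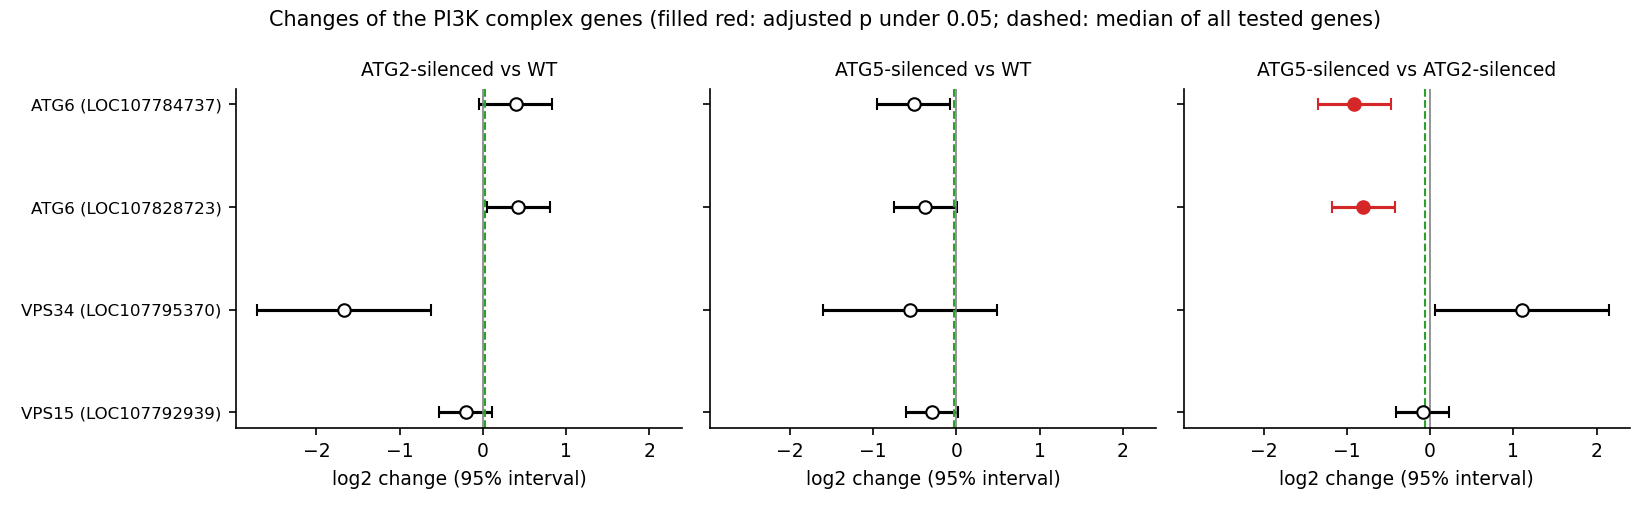
Log2 changes of the 4 PI3K complex genes with 95% intervals in the 3 comparisons. The filled red points passed (adjusted p under 0.05), and the dashed line is the median of all tested genes, 0.03, -0.03 and -0.07 from left to right. Passed values are the 2 *ATG6* copies between the silenced lines, at -0.91 and -0.80, while *VPS34* has the widest intervals.

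Since reads of similar copies can be shared out between them by the quantification, and the sequence identity of the copies was not computed here, the *ATG6* copies were also compared with each other and as a sum. LOC107784737 made up 55.5% to 66.9% of the *ATG6* FPKM in WT, 59.3% to 62.7% in *ATG2*-silenced and 55.4% to 62.6% in *ATG5*-silenced pollen. The shares of the 3 genotypes overlapped, and LOC107784737 was above LOC107828723 in every library. The log2 ratio of LOC107784737 to LOC107828723 was 0.71 ± 0.35 (SD, n = 3) in WT, 0.62 ± 0.12 in *ATG2*-silenced and 0.60 ± 0.25 in *ATG5*-silenced pollen. It differed from WT by -0.09 (two-sided exact permutation test, p = 0.6) and -0.11 (exact p = 0.5), and by -0.02 between the silenced lines (exact p = 0.8), differences within the spread between libraries. With 3 against 3 libraries the smallest p is 0.10, so this test could not have passed.

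The summed *ATG6* level was 2.9, 3.47 and 3 FPKM in WT, 4.2, 5.4 and 5.1 FPKM in *ATG2*-silenced pollen and 2.03, 1.2 and 1.48 FPKM in *ATG5*-silenced pollen. This sum was formed after the values of the copies were seen. Its log2 change was 0.45 in *ATG2*-silenced pollen against WT (SE 0.18, adjusted p = 0.228, limma) and -0.54 in *ATG5*-silenced pollen against WT (SE 0.18, adjusted p = 0.0310). Set against each other, the silenced lines differed by -0.99 (SE 0.18, adjusted p = 0.00148). The sum therefore passed against WT in *ATG5*-silenced pollen, where each copy alone did not.

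*VPS34*, the kinase itself, had its highest values in WT and passed in no comparison. It had 3.29, 2.66 and 3.5 FPKM in WT replicates 1 to 3, 0.9 and 1.9 FPKM in *ATG2*-silenced replicates 1 and 2 and was listed at 0 in *ATG2*-silenced replicate 3. The *ATG5*-silenced libraries had 1.8, 1.62 and 1.19 FPKM, or 48.8% of the WT mean as deposited and 63.3% after scaling. Both silenced lines lay below the lowest WT library, as deposited and after scaling, and the silenced lines overlapped with each other as deposited.

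The value of 0 was one of 38 in *ATG2*-silenced replicate 3 that belong to genes with at least 0.9 FPKM in the other 8 libraries, while such genes numbered 6 to 33 in each other library. Whether this 0 is a missing transcript, a failed estimate or due to reads assigned to a further copy was not tested. The log2 change against WT was -1.67 in *ATG2*-silenced pollen (SE 0.46, 95% interval -2.72 to -0.62, adjusted p = 0.115, limma), lower than that of all but 0.316% of the tested genes. That rank includes the library listed at 0 and was not determined without it. Without *ATG2*-silenced replicate 3 the change was -1.07 (adjusted p = 0.137). Over all alternatives the change ranged from -2.54 to -1.07 and the adjusted p from 0.0888 to 0.299. In *ATG5*-silenced pollen the change against WT was -0.56 (SE 0.46, interval -1.61 to 0.49, adjusted p = 0.335).

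The libraries of *VPS34* varied more than those of most genes, mainly through *ATG2*-silenced replicate 3. Its residual SD was 0.66 on the log2 scale, higher than in 93.4% of the tested genes, against a median of 0.21 over all genes, while the *ATG6* copies had 0.24 and 0.17 and *VPS15* 0.17. The SD of the log2 values was 0.15 in WT, 0.27 in *ATG5*-silenced and 1.09 in *ATG2*-silenced pollen. Without the library listed at 0 the residual SD of *VPS34* was 0.30, against a median of 0.21, and still higher than in 70.2% of the tested genes. This spread entered every comparison of *VPS34*, because 1 model was fitted to all libraries. When *ATG5*-silenced and WT pollen were fitted alone, the change was -0.57 with an adjusted p of 0.0363 (limma), the only one of the alternatives in which it passed. *VPS34* differed between the silenced lines by 1.11 (SE 0.46, interval 0.06 to 2.16, adjusted p = 0.0698), by 1.58 without *ATG2*-silenced replicate 2 (adjusted p = 0.0108) and by 0.51 without replicate 3, the library listed at 0 (adjusted p = 0.131), with a range over the alternatives of 0.0108 to 0.189.

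*VPS15*, the membrane anchor of the kinase, did not pass in any comparison. It had 7.61, 7.48 and 5.8 FPKM in WT, 6.3, 6.8 and 6.4 FPKM in *ATG2*-silenced pollen and 4.42, 4.69 and 3.84 FPKM in *ATG5*-silenced pollen. As deposited, *ATG5*-silenced pollen lay below both other genotypes, at 62.0% of the WT mean, whereas after scaling it was at 79.7% and no genotypes were apart. The log2 change was -0.21 in *ATG2*-silenced pollen against WT (SE 0.14, 95% interval -0.52 to 0.11, adjusted p = 0.504, limma; -0.35 without WT replicate 3, -0.13 without WT replicate 1 and -0.08 as deposited) and -0.29 in *ATG5*-silenced pollen (SE 0.14, interval -0.61 to 0.02, adjusted p = 0.108). The silenced lines differed by -0.09 (SE 0.14, interval -0.41 to 0.23, adjusted p = 0.619). WT replicate 3 was the lowest WT library, and without it the change in *ATG5*-silenced pollen was -0.44 (adjusted p = 0.0145, range over the alternatives 0.00256 to 0.306).

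Ratios within a library do not depend on the scaling of libraries to each other. They rest on the named genes alone, and further copies of *ATG6*, *VPS34* or *VPS15* were not searched for. The ratio of *VPS34* to *VPS15* was 0.432, 0.356 and 0.603 in WT, 0.143, 0.279 and 0 in *ATG2*-silenced pollen and 0.407, 0.345 and 0.310 in *ATG5*-silenced pollen. All 3 *ATG2*-silenced libraries lay below those of both other genotypes, which overlapped with each other. How common such a separation was among ratios of other genes was not determined, for this ratio or those below. In log2, *ATG5*-silenced pollen differed from WT by -0.36 (-1.51 ± 0.20 against -1.14 ± 0.39, SD, n = 3, exact permutation test, p = 0.2). No log2 ratio can be formed for *ATG2*-silenced replicate 3.

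The ratio of summed *ATG6* to *VPS34* was 0.881, 1.30 and 0.857 in WT and 1.13, 0.741 and 1.24 in *ATG5*-silenced pollen, with a log2 difference of 0.03 (exact permutation test, p = 1). In *ATG2*-silenced replicates 1 and 2 it was 4.67 and 2.84, above all libraries of the other genotypes. The ratio of summed *ATG6* to *VPS15*, chosen after its values were seen and given without a test, was 0.381 to 0.517 in WT, 0.667 to 0.797 in *ATG2*-silenced and 0.256 to 0.459 in *ATG5*-silenced pollen. By this ratio, too, *ATG2*-silenced pollen stood above the other genotypes, while WT and *ATG5*-silenced pollen overlapped. The ratios share genes, so they are not independent results.

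**Figure D3:**
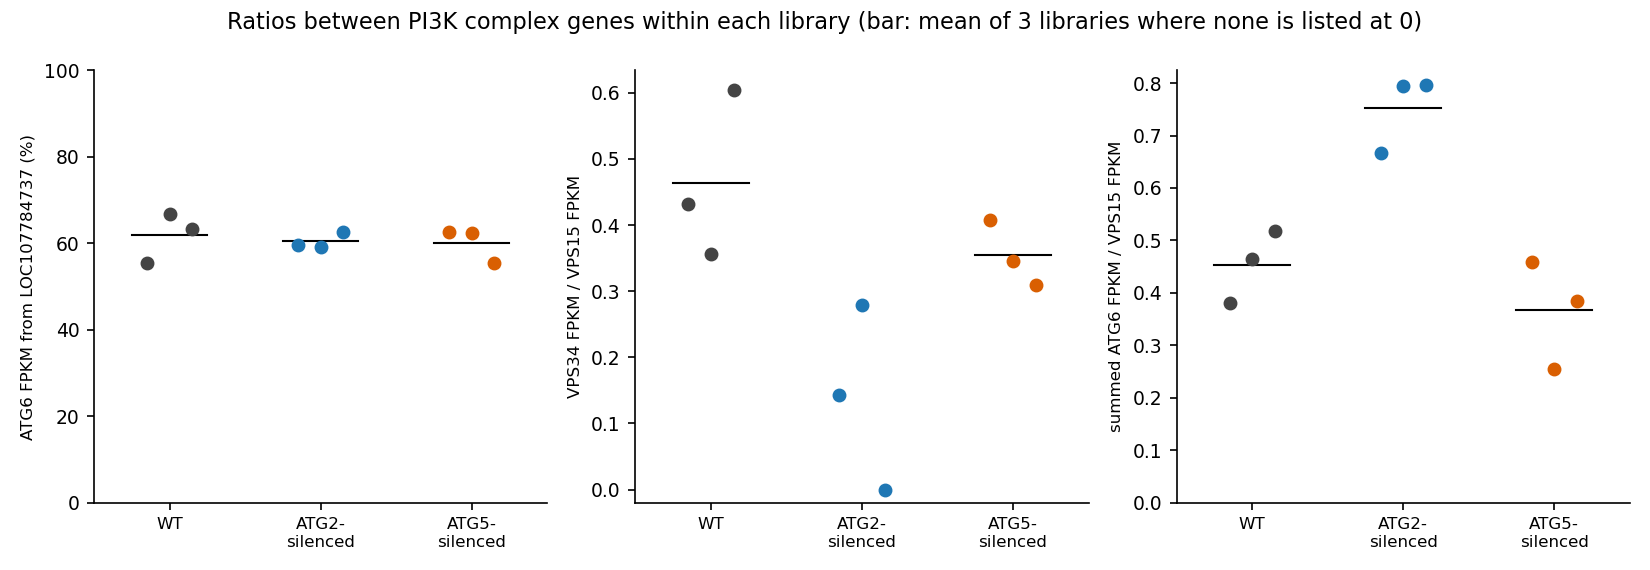
Ratios within each library: the percentage of *ATG6* FPKM from LOC107784737 (left), *VPS34* over *VPS15* (middle) and summed *ATG6* over *VPS15* (right), with bars at the mean of 3 libraries where none is listed at 0. The share of the copies overlaps between genotypes, whereas the *ATG2*-silenced libraries lie below in the middle panel, which includes the *VPS34* value of 0, and above in the right panel. The right ratio was chosen after its values were seen. How common such separations were among ratios of other genes was not determined.

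The calls of the *ATG6* copies and *VPS15* in *ATG5*-silenced pollen against WT changed with the scaling of the libraries, and also with other settings or single libraries. With FPKM as deposited the median change over the tested genes in this comparison was -0.30 in log2, with totals set equal (as in TPM) -0.25 and with quantile normalization -0.15, against -0.03 with the factors used above. *ATG6* LOC107784737 then had changes of -0.76, -0.73 and -0.66 (adjusted p = 0.00668, 0.00965 and 0.0173, limma), LOC107828723 -0.59, -0.56 and -0.47 (adjusted p = 0.0104, 0.0158 and 0.0387) and *VPS15* -0.63, -0.56 and -0.47 (adjusted p = 0.00256, 0.00560 and 0.0215). Each of these values passed. Of the genes that passed over the whole table, 52.0% were higher with the factors used above, 32.2% as deposited, 35.3% with equal totals and 41.9% with quantile normalization.

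In the comparison of both lines the median of all genes was -0.07, and -0.43, -0.35 and -0.13 under the 3 other scalings, and the share of higher genes among those that passed went from 49.4% to 25.4%, 30.4% and 43.5%. *VPS15* passed there as deposited (-0.54, adjusted p = 0.00475, limma) and with equal totals (-0.43, adjusted p = 0.0185). In *ATG2*-silenced pollen against WT the median was 0.13 as deposited, 0.09 with equal totals and -0.02 with quantile normalization, with 82.2%, 72.5% and 58.0% of the passed genes higher against 62.1%, and no PI3K complex gene passed. The difference of both *ATG6* copies between the silenced lines passed under all 4 scalings. No change of a PI3K complex gene changed its direction with the scaling.

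**Figure D4:**
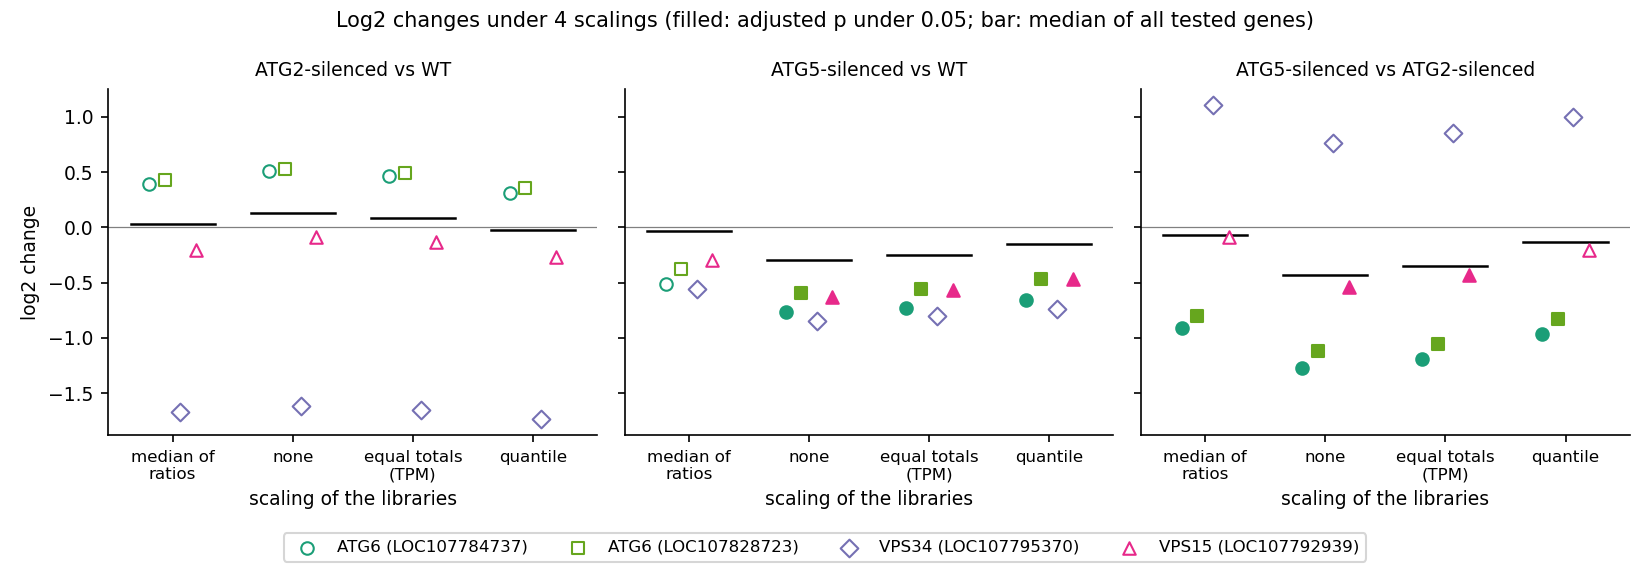
Log2 changes of the 4 PI3K complex genes under 4 scalings of the libraries in the 3 comparisons. Filled symbols passed (adjusted p under 0.05), and the black bar is the median of all tested genes, which in *ATG5*-silenced pollen against WT lies between -0.30 and -0.03. There the *ATG6* copies and *VPS15* are filled under 3 scalings and open under the first, and *VPS34* is open throughout.

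The profiles of the *ATG6* copies over the 9 libraries were close to each other. Likeness was measured as the root mean square difference of log2 values, each gene centred on its own mean, among 363 other named genes of at least 1 FPKM. It is a description of libraries that fall into 3 genotypes. The distance between the copies was 0.169, and 0.176% of all tested genes were nearer to LOC107784737 and 0.550% nearer to LOC107828723. The other copy was the named gene closest to LOC107784737, before *NtER* (0.193) and *PK* (0.216), and was the third for LOC107828723, after *CAS1* (0.167) and *PK* (0.167).

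*VPS34* and *VPS15* did not have such similar profiles. Their distance over all libraries was 0.826, with 9.05% of the tested genes nearer to *VPS34* and 84.8% nearer to *VPS15*. Without *ATG2*-silenced replicate 3, where *VPS34* is listed at 0, the distance was 0.429. Over all 9 libraries the closest named genes to *VPS34* were *MPK11*, a mitogen-activated protein kinase gene, at 0.699, *nack1*, a kinesin gene of cytokinesis, at 0.700, and *NtabSPL7*, an SBP-box factor gene, at 0.709. These distances exceeded those of the closest named genes of the other PI3K complex genes, which were 0.216 or less, and rest on the same library: without it none of these genes was among the closest, which were *MATE* (0.282), *NTMTP1A* (0.380) and *brp1* (0.382). *VPS15* was close to *C1C-Nt1* (0.0865), the sucrose transporter gene *SUT3* (0.113) and *PLIM-2* (0.125), a LIM protein gene of pollen.

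The other named genes of the autophagy machinery numbered 16, of which 9 passed the filter on low values. In *ATG2*-silenced pollen 1 of the 9 was lower than in WT, *ATG2* itself at a log2 change of -1.11 (adjusted p = 0.0113, limma), and none was higher, or 1 (*JOKA2*) at an unadjusted p under 0.05, which 17.8% of all tested genes had. The median change of the 9 was 0.09, against 0.03 over all tested genes. Against WT, 4 of the 9 were lower in *ATG5*-silenced pollen, the silenced gene *ATG5* among them, and 1 was higher. The median was -0.42 against -0.03, beside 24.9% lower and 27.1% higher among all tested genes. As deposited and with equal totals 6 were lower, *TOR* and *ATG2* among them, and 1 higher. Of the 27836 tested genes 10930 were lower and 5188 higher as deposited, and 10144 and 5534 with equal totals. The lower genes with the factors used above were *ATG5* itself (-1.38, adjusted p = 0.000190), *JOKA2*, the tobacco NBR1-type receptor of selective autophagy (-0.73, adjusted p = 0.00547), *ATG18d*, of the family that binds phosphatidylinositol 3-phosphate (-0.65, adjusted p = 0.0265), and *ATG9*, a lipid scramblase of the growing membrane (-0.42, adjusted p = 0.0412). The higher one was *ATG13b*, of the ATG1 kinase complex (0.75, adjusted p = 0.00295).

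*JOKA2* was at 1.49 ± 0.24 FPKM in WT (SD, n = 3), 2.40 ± 0.36 in *ATG2*-silenced and 0.543 ± 0.13 in *ATG5*-silenced pollen. Between the silenced lines 4 of the 9 autophagy genes were lower in *ATG5*-silenced pollen and 2 higher, with a median of -0.40 against -0.07 over all genes. These counts include the silenced genes, *ATG5* as lower and *ATG2* as higher, whose direction was set by the design. *JOKA2* (-1.17), *ATG5* (-1.40), *ATG18d* (-0.74) and *TOR* (-0.62), the kinase that holds autophagy down, were the lower ones. *ATG2* (0.84) and *ATG13b* (0.52) were higher, and *ATG13b* did not pass in this comparison under the 3 other scalings. Among all tested genes 27.5% were lower and 26.8% higher in this comparison. As deposited 7 of the 9 were lower and 1 higher, beside 13451 lower and 4589 higher of the 27836 tested genes (median -0.43).

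Of 8 named genes of phosphoinositide metabolism and endosomal transport, chosen without regard to which phosphoinositide they act on, 7 were tested. None passed in *ATG2*-silenced pollen against WT (limma), with a median change of 0.03, and 2 had an unadjusted p under 0.05, *PIP5K6-1* (log2 change 0.26) and *PLC3* (-0.30), against 17.8% of all tested genes. For *ATG5* silencing 2 were higher and 2 lower, with a median of -0.15, near the 27.1% and 24.9% of all tested genes. With FPKM as deposited 2 were higher and 5 lower (median -0.46), beside 5188 higher and 10930 lower of the 27836 tested genes (median -0.30). *Nt-rab5*, a GTPase of endosomes, had 3.94 ± 0.57 FPKM in WT against 7.90 ± 0.91 in *ATG5*-silenced pollen (log2 change 1.27, adjusted p = 4.61e-05), and *PIP5K6-1*, a phosphatidylinositol phosphate kinase gene, changed by 0.66 (adjusted p = 0.000555). *Nt-rab7a*, a GTPase of late endosomes and the vacuole, had 40.0 ± 1.5 FPKM in WT against 19.2 ± 2.7 in *ATG5*-silenced pollen (-0.69, adjusted p = 0.000347). *PLC3*, a phospholipase C gene, changed by -0.43 (adjusted p = 0.00318). Between the silenced lines *Nt-rab5* (1.24) and *PIP5K6-1* (0.39) were higher in *ATG5*-silenced pollen and *Nt-rab7a* (-0.72) lower, and the difference of *PIP5K6-1* changed its sign with FPKM as deposited (-0.08). As deposited and with equal totals 1 was higher and 4 lower there, and *PLC3* passed as lower under the 3 other scalings. Of the 27836 tested genes 4589 were higher and 13451 lower as deposited, and 5195 and 11893 with equal totals.

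**Figure D5:**
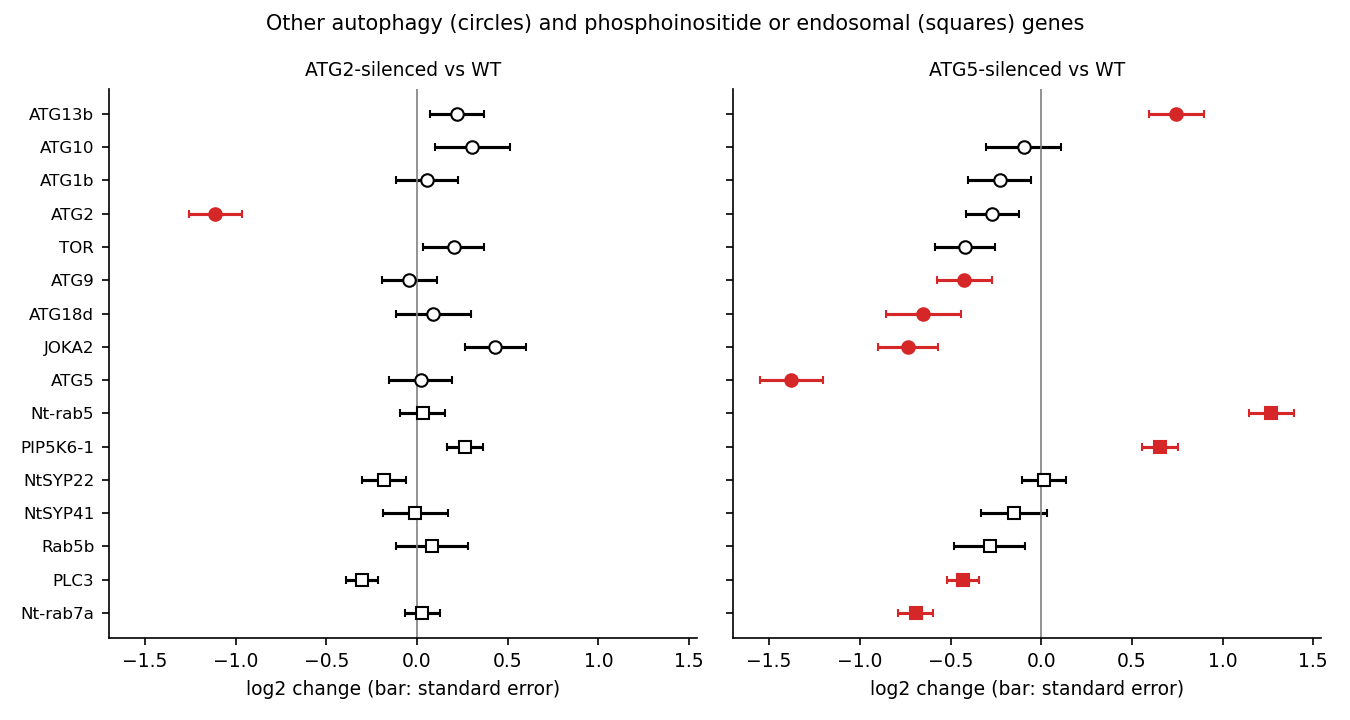
Log2 changes against WT, with standard errors, of the other tested genes of the autophagy machinery (circles, 9 genes) and of phosphoinositide metabolism and endosomal transport (squares, 7 genes). Filled red symbols passed (adjusted p under 0.05): 1 in *ATG2*-silenced pollen, which is *ATG2*, and 5 circles, *ATG5* among them, and 4 squares in *ATG5*-silenced pollen, on both sides of 0.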

How the data were processed

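The authors removed low-quality reads with SOAPnuke, mapped clean reads to the Ntab-TN90 reference (Annotation Release 100) with HISAT2 and Bowtie 2, quantified genes with RSEM and deposited FPKM, in 1 table per library; versions are not given in the sources used here. One line without gene or value was left out. Read counts were not used, so depth and counting error are unknown and the DESeq2 test of the study was not repeated.

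FPKM was divided by median-of-ratios factors over 14192 genes above 1 FPKM in all libraries, then 0.5 was added for the log2. The test covered genes reaching 0.5 FPKM in 3 of 9 libraries and used limma 3.58.1 (statmod 1.5.0, R 4.3.3; trend and robust eBayes, 1 fit of 9 libraries). Ratios were compared by exact permutation tests over 20 assignments. Python 3.11.15 and matplotlib 3.10.9 drew the plots. The procedure was tested on simulated data. Alternatives were other scalings, pseudocounts, filters and eBayes settings, a replicate block, a fit of 2 genotypes, rounding to 1 decimal and leaving out each library. The members, lists and tests were chosen with earlier results of these data known. The text names the 4 genes, the 3 named genes most like each, and list genes that passed. A search for further copies by protein similarity was planned and not run.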

Additional observations from a re-analysis of the deposited data

Results flagged for a closer look

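The changes of both *ATG6* copies differed between the silenced lines, by a test of the difference itself (limma, *ATG5*-silenced against *ATG2*-silenced pollen). It was -0.91 for LOC107784737 (adjusted p = 0.00367) and -0.80 for LOC107828723 (adjusted p = 0.00322) in log2, and all 3 *ATG5*-silenced libraries lay below all 3 *ATG2*-silenced libraries for each copy. The copies may share reads, so these are not 2 independent results. Among all tested genes 27.5% were lower and 26.8% higher in this comparison, and neither copy passed against WT in either line.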

How the results depend on the processing

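The difference of the *ATG6* copies between the silenced lines passed in all 18 alternatives, with log2 changes of -1.27 to -0.74 for LOC107784737 and -1.12 to -0.62 for LOC107828723. The 18 include the sum of both copies, which was chosen after seeing the data and has the same value for each copy. In *ATG5*-silenced pollen against WT, LOC107784737, LOC107828723 and *VPS15* passed with FPKM as deposited (-0.76, -0.59 and -0.63), equal totals (-0.73, -0.56 and -0.56) and quantile normalization (-0.66, -0.47 and -0.47). LOC107784737 also passed with a pseudocount of 0.1 (-0.65), with a filter of 1 FPKM (-0.51) and without trend and robust (-0.51), both copies passed as a sum (-0.54, chosen after seeing the data), and *VPS34* passed in the fit of 2 genotypes (-0.57). Between the silenced lines *VPS15* passed as deposited (-0.54) and with equal totals (-0.43). Leaving out each library gave -0.69 to -0.40, -0.48 to -0.24 and -0.44 to -0.20 for LOC107784737, LOC107828723 and *VPS15* in *ATG5*-silenced pollen against WT. For the difference of both lines it gave 0.51 to 1.58 for *VPS34* and -0.13 to 0.0070 for *VPS15*, which changed sign without *ATG5*-silenced replicate 3. Where not given by fewer libraries or genes, the cause was not tested.

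Replicates of equal number did not deviate together (correlations -0.0436 to 0.0528), and no library correlated best with its own number in both other genotypes. With a replicate block no call of the 4 genes changed, the difference of LOC107784737 between the lines being -0.91 (adjusted p = 0.0115, limma), and 203 genes in place of 301 passed in *ATG2*-silenced pollen against WT. That count was 499 as deposited and 57 to 700 when 1 library was left out. The log2 ratios moved by less than the SD between libraries in every alternative. Log2 ratios with *VPS34* for *ATG2*-silenced pollen could not be formed without a pseudocount. With 0.5 added to both sides, *VPS34* to *VPS15* differed from WT by -1.53 and summed *ATG6* to *VPS34* by 2.18 (exact permutation p = 0.1 for each, the smallest possible). Values of 1 decimal and unknown depth limit all comparisons of genes near 1 FPKM.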
